A study of Mus musculus with 8 samples.

Results

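Gene expression was compared between AE9a-positive leukaemia cells of mice given ascorbate and those of mice given PBS (phosphate-buffered saline), with knockdown of Tet2 kept on in both groups. The comparison holds 5 of the 8 libraries of the study, chosen by the labelled treatment and by no measured value: ascorbate mice 28 and 30 and PBS mice 16, 17 and 19. All 5 mice were secondary recipients on doxycycline, so both groups share AE9a, the hairpin against Tet2 (genotype RTA shTet2) and the drug that switches the hairpin on. AE9a, a shortened RUNX1-RUNX1T1 fusion, drives a mouse model of acute myeloid leukaemia. Per the labels' protocols, cKit-positive marrow of C57BL/6J mice received 1 retrovirus with AE9a and the inducible hairpin. Primary recipients were lethally irradiated C57BL/6J mice 6 to 8 weeks old on a doxycycline diet, given 50000 AE9a-positive cells with 500000 wild-type support marrow cells. Splenic AE9a-positive cells of moribund mice were passed on at the same cell numbers, and those of moribund secondary recipients gave the RNA. The recipient age listed for each of the 5 mice compared is also 6 to 8 weeks. The dose and length of the ascorbate treatment, the way AE9a-positive cells were picked from the spleen, and the primary leukaemia behind each secondary recipient are not given in the sources used here. Mice 21 and 23, secondary recipients taken off doxycycline and given PBS (labelled Tet2-restored), share the statistical fit and are set against ascorbate at the end.

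Ascorbate (vitamin C) keeps the iron of 2-oxoglutarate-dependent dioxygenases in its reduced, active state. This enzyme family holds the TET proteins, which oxidise 5-methylcytosine, the JmjC histone demethylases, and the prolyl hydroxylases that mark the hypoxia-inducible factor HIF for breakdown. HIF turns on genes of glucose uptake and glycolysis through sites with the core letters ACGTG or GCGTG. FOXO transcription factors act when growth factor signalling through AKT is low, and turn on genes of cell cycle arrest and cell death.

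The 5 libraries held 18.1 M to 27.1 M counts, mouse 28 being the shallowest, and levels are given as CPM, counts scaled to a common library total. Genes encoded in mitochondria took 17.1% of the counts of mouse 28, 9.73% of mouse 30 and 9.09% to 11.4% of the PBS mice. Tet2 stood at 12.7, 12.7 and 13.4 CPM in PBS mice 16, 17 and 19 and at 13.6 and 11.7 CPM in ascorbate mice 28 and 30, so the groups overlapped (log2 fold change −0.03, SE 0.24, edgeR adjusted p 0.945). Tet1 had 0 counts in all 7 secondary libraries, which allows up to 0.107 to 0.181 CPM in these 5. Runx1t1, the fusion partner that blood cells hardly use otherwise, was read at 108, 101 and 105 CPM with PBS and at 133 and 129 CPM with ascorbate (0.32, SE 0.24, adjusted p 0.442). Runx1 gave 233, 197 and 229 CPM against 290 and 279 CPM (0.37, SE 0.14, adjusted p 0.153). Reads of the transgene and of the mouse's own genes are not separated in these counts. Among markers of the labelled cell type, Kit was read at 54.0 to 154 CPM in the PBS and 109 and 70.4 CPM in the ascorbate libraries, while Mpo, a granule enzyme that defines early myeloid cells, was at or below 1.59 CPM in all 5. Cebpa, the main factor of granulocyte and monocyte progenitors, was at 0.122 to 0.643 CPM with PBS and at 0.544 and 0.458 CPM with ascorbate. The erythroid and megakaryocytic factor Gata1 (255 to 298 CPM with PBS, 331 and 301 CPM with ascorbate) and the erythroid factor Klf1 (226 to 261 CPM, then 182 and 186 CPM) were both well expressed. These markers do not bear out an early myeloid cell type, and the cells are called AE9a-positive leukaemia after their label.

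With ascorbate, 132 of 12137 genes tested rose and 215 fell past an adjusted p of 0.05 (edgeR quasi-likelihood test). That is 2.86% of all genes tested, 1.09% higher and 1.77% lower. Counts of list members given below are to be read beside these shares. The 347 genes all had separate ranges in the 2 groups. Without regard to the test, 21.9% of all genes had both ascorbate libraries above the 3 PBS libraries and 23.9% had both below. At least a 2-fold change was seen for 81 of the higher and 163 of the lower genes, and the median log2 fold changes were 1.14 and −1.27. The higher genes were more abundant (median 39.5 CPM over the 5 libraries) than the lower ones (19.0 CPM), against 27.8 CPM for all genes. The lower genes also had longer transcripts (median 5.12 kb, against 3.49 kb for the higher and 3.79 kb for all genes). An unadjusted p under 0.05 was found for 2862 genes (23.6%), where chance alone would give 607. The count rests on single libraries: leaving out ascorbate mouse 28 or 30 gave 2 or 7 genes, leaving out PBS mouse 16, 17 or 19 gave 5, 87 or 15, and leaving out mouse 21 or 23 gave 796 or 763. Without PBS mouse 17, 82 of the 87 genes were among the 347, and without mouse 19, 13 of the 15. Some genes called without an ascorbate mouse were not among the 347 either. Fitted on the 5 libraries alone the count was 855, of which 346 are among the 347. On unscaled library totals it was 383 with 21.7% higher in place of 38.0%, as the median of all genes then lay at −0.12 in place of −0.01. With an offset for transcript length it was 470, 220 higher and 250 lower (46.8% higher). Across genes, Spearman's rho between a library's log2 ratio to the PBS mean and transcript length was 0.371, −0.343 and −0.0859 in mice 16, 17 and 19 and −0.300 and −0.128 in mice 28 and 30, and the part of length in the calls was not tested further.

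**Figure D1:**
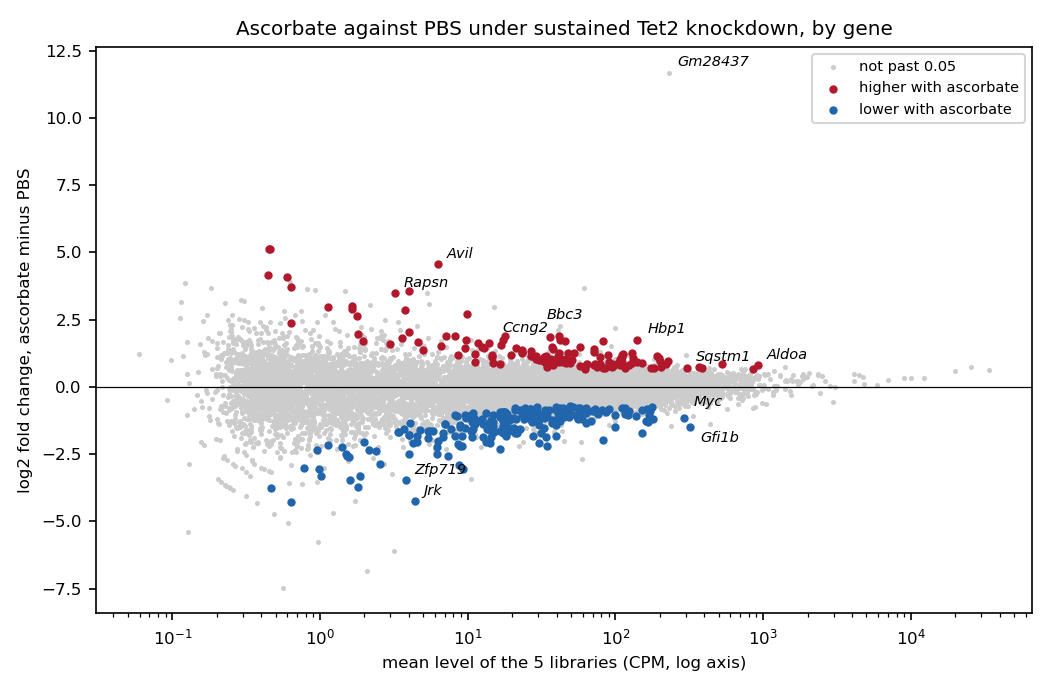
Log2 fold change of ascorbate minus PBS (vertical axis) against the mean level of the 5 libraries in CPM (log axis) for each of the 12137 genes tested; red and blue points are the 132 higher and 215 lower genes, grey points did not pass an adjusted p of 0.05. The lone grey point at the top is the predicted gene Gm28437, read at 1146 CPM in mouse 30 and at no more than 1.87 CPM in the other 4 libraries.

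The 2 ascorbate mice differed from each other over 2-fold in more genes than any 2 of the PBS mice. Of all genes tested, 9.38% (1139 genes) differed over 2-fold between mice 28 and 30, against 8.23% between mice 16 and 17, 7.22% between mice 16 and 19 and 6.79% between mice 17 and 19. Above a mean level of 10 CPM these shares were 2.07% for the ascorbate pair and 1.74%, 0.942% and 1.07% for the PBS pairs. The genes past the threshold were closer: 9 of the 132 higher genes (6.82%) and 5 of the 215 lower genes (2.33%) differed over 2-fold between mice 28 and 30. Agreement between these 2 mice is part of what the test asks for, so these last shares are a description.

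Among genes past the threshold, Avil rose most, leaving out predicted genes and those whose ascorbate mean was under 5 CPM. Avil encodes advillin, an actin-binding protein of the gelsolin-villin family (chromosome 10, 127000709 to 127020994, GRCm38). It was read at 0.649, 0.774 and 0.464 CPM in PBS mice 16, 17 and 19 and 10.9 and 18.7 CPM in ascorbate mice 28 and 30. Both ascorbate libraries thus stood far above every PBS library, and mice 21 and 23 lay between at 2.25 and 1.26 CPM. The log2 fold change was 4.55 (SE 0.41, adjusted p 0.00883), or 23.5-fold, and it passed in all 7 fits that left out 1 library and in 13 other settings. The other 85 of 86 named genes past the threshold passed in at most 5 of those 7 fits. Of 22 tested gelsolin-villin and actin regulator genes Avil rose and Arhgap35, a GTPase-activating protein, fell (16.5, 8.19 and 8.42 CPM to 1.57 and 2.12 CPM; −2.57, SE 0.45, adjusted p 0.0298), with a list median of 0.23. Arhgap35 was as low in mice 21 and 23, at 1.39 and 2.53 CPM. Rapsn, which clusters acetylcholine receptors at the muscle synapse, rose from 0.325, 0.408 and 1.14 CPM to 9.97 and 4.33 CPM (3.48, SE 0.56, adjusted p 0.0272). Il20rb, a subunit of the receptors for the interleukin-20 family, rose from 1.18, 1.55 and 0.535 CPM to 7.91 and 7.74 CPM (2.85, SE 0.49, adjusted p 0.0298). Here the 2 ascorbate mice nearly coincide, whereas for Eng (endoglin, a co-receptor for TGF-beta) mouse 28 at 33.9 CPM stood far above mouse 30 at 6.62 CPM, with 2.68 to 3.79 CPM in the PBS mice (2.70, SE 0.56, adjusted p 0.0448).

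Ccng2, Hbp1, Sertad3 and a pair of cyclin-dependent kinase inhibitors rose in both ascorbate mice. Ccng2, an unconventional cyclin that accumulates in resting and arrested cells (chromosome 5, 93267257 to 93276231), was at 27.9, 22.9 and 20.1 CPM with PBS and at 79.4 and 76.5 CPM with ascorbate. The 2 ascorbate values are close to each other and far above the highest PBS value (1.72, SE 0.19, adjusted p 0.0103), and mice 21 and 23 read 22.9 and 29.9 CPM. Hbp1, an HMG-box repressor that restrains entry into the cycle, went from 85.0, 66.5 and 64.5 CPM to 252 and 234 CPM (1.75, SE 0.25, adjusted p 0.0216), though 24.6% of its exonic bases are shared with Cog5. Sertad3, a SERTA-domain transcription co-regulator, went from 8.81, 8.89 and 8.07 CPM to 30.4 and 33.6 CPM (1.90, SE 0.21, adjusted p 0.0103). Cdkn2d, an INK4-class inhibitor of cyclin-dependent kinases, rose from 22.1, 36.4 and 33.3 CPM to 71.8 and 74.0 CPM (1.25, SE 0.21, adjusted p 0.0291). Cdkn1b, an inhibitor of the KIP class, rose from 110, 83.4 and 96.6 CPM to 157 and 202 CPM (0.89, SE 0.18, adjusted p 0.0392). These 2 inhibitors were the members that rose among 50 tested genes of G1/S and DNA replication, 0 fell, and the list median was −0.06. Of 44 genes of G2/M and mitosis 0 passed in either direction, 39 had negative estimates and the median was −0.34, at −0.55 in mouse 28 and −0.15 in mouse 30. For this list mice 21 and 23 stood at −0.19 and −0.69. Pnrc1, a nuclear receptor coactivator named here after its values were seen, was at 44.0, 44.0 and 41.3 CPM with PBS and at 142 and 138 CPM with ascorbate (1.70, SE 0.17, adjusted p 0.00883).

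Targets of FOXO factors were among the genes that rose: 5 of 32 tested members passed higher and 0 lower (15.6% called, against 2.86% of all genes). They were Ccng2, Ypel2, Ypel5, Ddit4 and Cdkn1b. The list, like the others, was chosen with earlier results of these data known, so its share is a description. Ypel5, a yippee-like protein of a ubiquitin ligase complex, was at 36.6, 29.2 and 34.7 CPM with PBS and at 95.8 and 91.2 CPM with ascorbate (1.48, SE 0.28, adjusted p 0.0348). Its relative Ypel2 rose in mouse 28 to 21.4 CPM and in mouse 30 to 7.99 CPM, from 2.77 to 4.57 CPM (1.88, SE 0.42, adjusted p 0.0494). Ddit4, an inhibitor of mTORC1 that is also induced by hypoxia, rose from 26.3, 17.7 and 23.4 CPM to 73.0 and 47.2 CPM (1.42, SE 0.23, adjusted p 0.0291). The list median was 0.22, with 20 estimates above and 12 below 0. Mouse 28 had a median of 0.37. Mouse 30, at 0.08, lay inside the range of the PBS mice. Foxo3, a FOXO factor itself, read 184 to 283 CPM with PBS and 214 and 248 CPM with ascorbate (−0.02, SE 0.19, adjusted p 0.950).

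**Figure D2:**
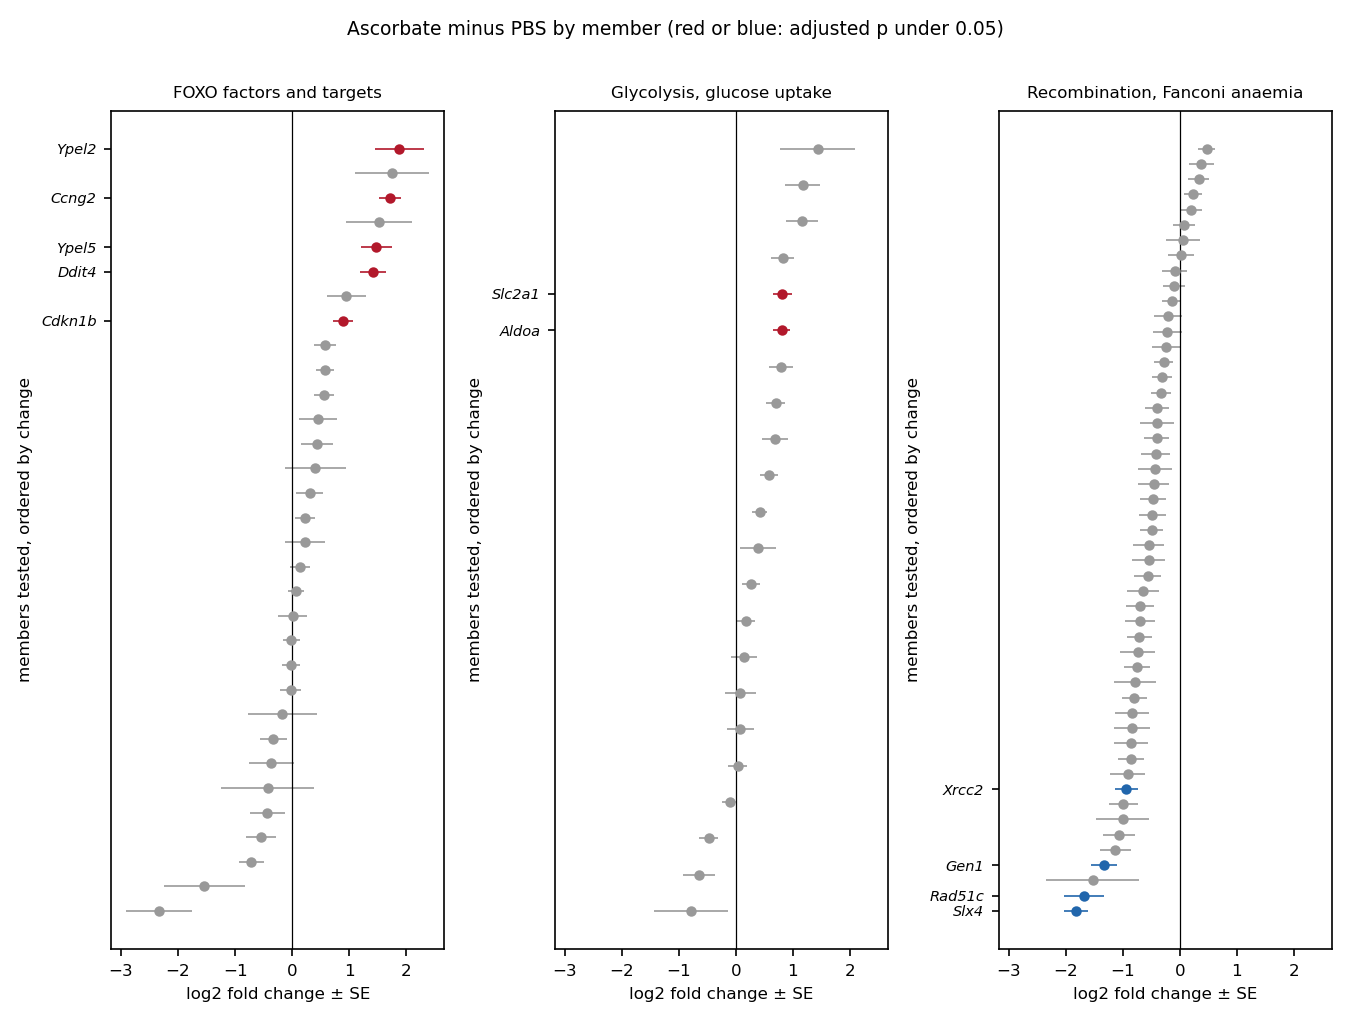
Log2 fold change of ascorbate minus PBS with its SE for each tested member of the lists of FOXO factors and targets (32), glycolysis and glucose uptake (22) and homologous recombination with Fanconi anaemia (51). Coloured points, named on the axis, passed an adjusted p of 0.05: 5 FOXO targets and 2 glycolysis genes to the right of 0, and 4 recombination genes to the left.

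Bbc3 (PUMA, a BH3-only protein that triggers apoptosis; chromosome 7, 16308393 to 16318205) was at 19.3, 24.5 and 15.8 CPM with PBS and at 73.7 and 74.1 CPM with ascorbate. The 2 ascorbate mice nearly coincide above all PBS mice (1.90, SE 0.21, adjusted p 0.0103), and mice 21 and 23 read 31.2 and 40.4 CPM. Bnip3, a mitochondrial BH3-like protein of mitophagy, rose from 7.02, 6.36 and 8.28 CPM to 18.9 and 21.8 CPM (1.49, SE 0.26, adjusted p 0.0308); 22.3% of its exonic bases are shared with the predicted gene Gm45507. These 2 rose and 0 fell among 18 tested BCL2 family genes (11.1% called, median 0.13). Mcl1, a survival protein of the family, stood at 239, 170 and 214 CPM and then 331 and 334 CPM, short of the threshold (0.68, SE 0.20, adjusted p 0.0925). In the p53 pathway 1 of 27 members rose (Bbc3) and 1 fell (Rrm2b, a ribonucleotide reductase subunit, from 7.50 to 11.7 CPM down to 3.32 and 3.87 CPM; −1.37, SE 0.29, adjusted p 0.0448), with a median of −0.15. Cdkn1a, the p53 target that halts the cycle, did not differ beyond its error (34.7, 47.6 and 40.9 CPM against 35.8 and 39.8 CPM; −0.12, SE 0.19, adjusted p 0.724).

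The 250 bases before the RefSeq start site are shown for 3 of these genes and for Slc2a1, the glucose transporter described next, because HIF and FOXO are known to act through letters that can be looked for there. The sequences are RefSeq's, on GRCm38.p6, written 5′ to 3′ on the strand of the gene, with capitals for the letters ACGTG or GCGTG on either strand (CACGT or CACGC when read on the other).
Ccng2: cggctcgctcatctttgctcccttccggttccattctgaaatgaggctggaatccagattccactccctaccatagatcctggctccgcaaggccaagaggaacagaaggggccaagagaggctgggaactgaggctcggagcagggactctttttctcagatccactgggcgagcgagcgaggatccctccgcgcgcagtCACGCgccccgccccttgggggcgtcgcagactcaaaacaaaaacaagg
Ddit4: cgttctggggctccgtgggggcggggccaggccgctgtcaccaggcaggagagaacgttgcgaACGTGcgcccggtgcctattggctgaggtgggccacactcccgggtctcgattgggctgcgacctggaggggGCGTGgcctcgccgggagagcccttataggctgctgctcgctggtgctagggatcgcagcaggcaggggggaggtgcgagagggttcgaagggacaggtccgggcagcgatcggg
Bnip3: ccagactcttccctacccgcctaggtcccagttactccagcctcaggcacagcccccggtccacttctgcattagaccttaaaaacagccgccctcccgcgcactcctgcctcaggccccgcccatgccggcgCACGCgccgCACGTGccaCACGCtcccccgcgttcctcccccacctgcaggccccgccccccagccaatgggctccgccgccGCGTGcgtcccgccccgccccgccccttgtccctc
Slc2a1: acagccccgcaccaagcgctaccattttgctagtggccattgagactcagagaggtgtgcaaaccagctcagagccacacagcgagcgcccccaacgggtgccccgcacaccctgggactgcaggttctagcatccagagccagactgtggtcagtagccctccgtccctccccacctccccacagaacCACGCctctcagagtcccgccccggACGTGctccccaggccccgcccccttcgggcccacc
They lie at chr5:93267323-93267572 (Ccng2, plus strand), chr10:59951771-59952020 (Ddit4, minus strand), chr7:138909507-138909756 (Bnip3, minus strand) and chr4:119108495-119108744 (Slc2a1, plus strand), with GC contents of 59.6%, 70.0%, 72.4% and 66.4%. The RefSeq starts lie 316, 64, 13 and 34 bases downstream of the first base of the gene in GENCODE, so the Ccng2 window lies wholly inside the GENCODE gene and the ends of the other windows reach into it. The HIF core letters occur once for Ccng2, at 2 places for Ddit4, at 5 for Bnip3 and at 2 for Slc2a1. In Bnip3 a pair of them overlaps in the E-box CACGTG. Of 8 promoters looked at (also Bbc3, Ypel5, Aldoa and Cdkn1b), 6 held the HIF core, 1 the E-box and 0 the FOXO letters TGTTTAC. Ypel5 and Aldoa were those without the HIF core. The shares among 27025 promoter windows of the same length were 38.6%, 6.05% and 3.09%. Bbc3, with the HIF core at 4 places, has a RefSeq start 1190 bases from the first base of the gene in GENCODE. A stretch of bases after that start was found in no GENCODE transcript of Bbc3, so its window is less certain. The 8 genes were picked from called members of the glycolysis, hypoxia, p53 and FOXO lists, which hold known HIF targets. Their shares are therefore a description and no test against the other promoters. These are matches of letters, not binding data.

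Of 22 tested genes of glycolysis and glucose uptake 2 rose and 0 fell (9.09% called). Aldoa, the muscle-type aldolase, which drew the most counts among the genes that rose, was at 613, 808 and 711 CPM with PBS and at 1236 and 1243 CPM with ascorbate. The 2 ascorbate libraries nearly coincide above a PBS group that is more spread out (0.80, SE 0.15, adjusted p 0.0348). Slc2a1, the glucose transporter GLUT1, went from 53.6, 44.8 and 46.3 CPM to 79.2 and 90.8 CPM (0.82, SE 0.16, adjusted p 0.0380). The list median was 0.40, with 18 estimates above and 4 below 0, and it was 0.37 in mouse 28 and 0.56 in mouse 30 against a range of −0.01 to 0.08 in the PBS mice. Ldha, the lactate dehydrogenase subunit, read 914, 1044 and 982 CPM and then 1340 and 1598 CPM, and did not pass (0.58, SE 0.16, adjusted p 0.0765). Nor did Pkm (181, 217 and 203 CPM against 429 and 476 CPM; 1.18, SE 0.31, adjusted p 0.0743) or Eno1 (0.82, SE 0.20, adjusted p 0.0603), and Gapdh, which has many near-identical pseudogenes and is uncertain for that reason, read 8.00, 8.19 and 6.996 CPM and then 5.86 and 4.04 CPM (−0.65, SE 0.27, adjusted p 0.189).

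Hypoxia-inducible genes outside glycolysis moved in both directions: of 25 tested, 3 rose and 2 fell (median 0.16). Ddit4, Bnip3 and Mxi1 rose. Mxi1, a MAX partner that opposes MYC, read 156, 138 and 143 CPM with PBS and 248 and 225 CPM with ascorbate (0.70, SE 0.15, adjusted p 0.0459). Dusp1 and Jun, which hypoxia shares with the immediate early response, fell. Vegfa, the angiogenic HIF target, was at 14.4 and 17.1 CPM against 16.1 to 18.4 CPM (−0.14, SE 0.19, adjusted p 0.683), and Hif1a itself was low in mouse 28 (15.9 CPM) and high in mouse 30 (41.2 CPM), on either side of the PBS mice at 28.8 to 37.0 CPM. In the oxygen sensing list 0 of 8 tested genes passed (median −0.21, with −0.39 in mouse 28 and 0.04 in mouse 30). Vhl, the ubiquitin ligase subunit that binds hydroxylated HIF, read 43.4, 37.1 and 40.1 CPM and then 61.1 and 65.6 CPM (0.66, SE 0.21, adjusted p 0.113).

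Among the dioxygenases for which ascorbate is a cofactor, 1 of 48 tested rose and 1 fell (4.17% called), and the median of −0.01 turned to 0.07 with an offset for transcript length. Fto, which removes methyl groups from adenines in RNA, rose from 94.6, 99.1 and 85.6 CPM to 155 and 145 CPM (0.69, SE 0.14, adjusted p 0.0424). Jmjd4, a lysyl hydroxylase of a translation release factor, fell from 30.4, 26.0 and 27.1 CPM to 9.60 and 9.61 CPM (−1.53, SE 0.19, adjusted p 0.0132). Its 2 ascorbate values nearly coincide. Tet3, the TET enzyme with readable counts beside Tet2, with 109, 88.0 and 98.9 CPM against 61.5 and 70.8 CPM, did not pass (−0.58, SE 0.17, adjusted p 0.0903). Of the genes of vitamin C transport and iron handling 0 of 26 passed (median −0.05). Hmox1, the haem oxygenase, read 5.68, 7.09 and 8.10 CPM with PBS and 2.30 and 2.54 CPM with ascorbate (−1.52, SE 0.35, adjusted p 0.0510). DNA methylation machinery genes gave 0 of 21 (median −0.14), with Gadd45g at 25.3 to 27.4 CPM against 22.3 and 11.4 CPM (−0.66, SE 0.27, adjusted p 0.180).

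**Figure D3:**
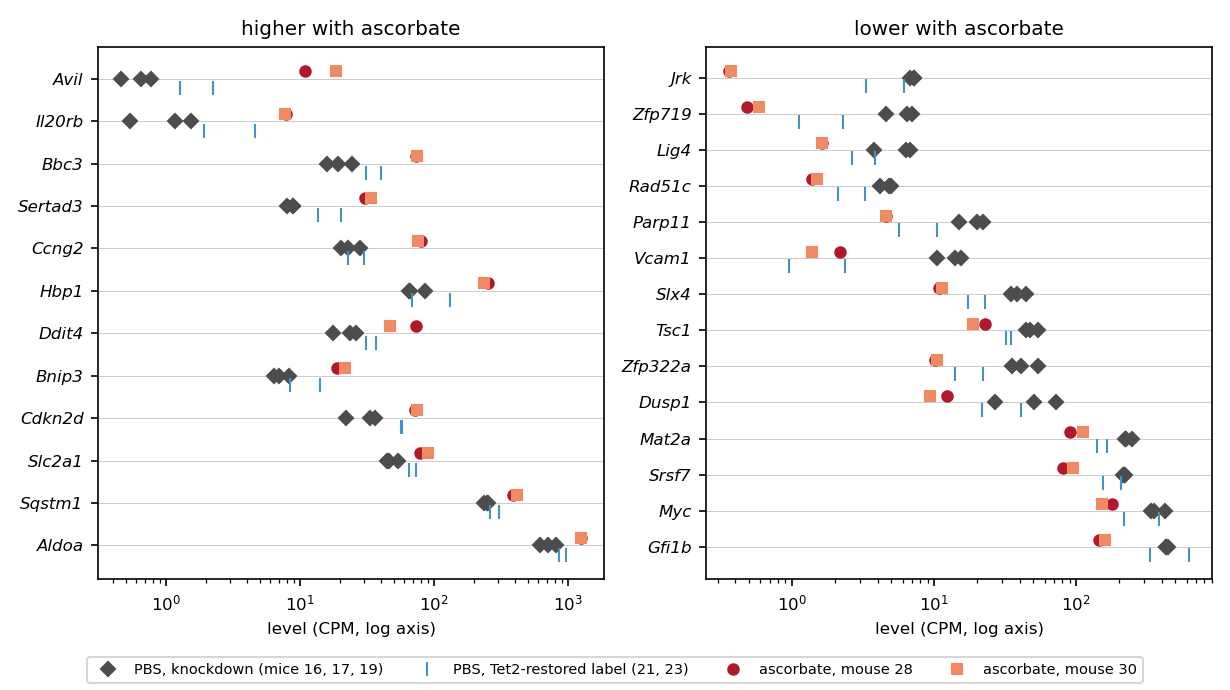
Level in CPM (log axis) of 12 genes that rose and 14 genes that fell, with 1 symbol for each library: diamonds for PBS mice 16, 17 and 19, a circle for ascorbate mouse 28, a square for mouse 30 and blue ticks for mice 21 and 23. In every row both ascorbate symbols lie outside the range of the diamonds, from Avil (10.9 and 18.7 CPM against at most 0.774) to Gfi1b (144 and 160 CPM against at least 428). The genes shown all passed the threshold, and every gene that passed had separate ranges, so this follows from the choice of genes.

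Among genes past the threshold, Jrk fell most, leaving out predicted genes and those whose PBS mean was under 5 CPM. Jrk encodes jerky, a DNA-binding protein derived from a transposase (chromosome 15, 74702301 to 74709535). It was read at 6.78, 7.26 and 7.25 CPM in the PBS mice and at 0.362 and 0.375 CPM in the ascorbate mice, with 6.11 and 3.34 CPM in mice 21 and 23. Within each of the 2 groups the libraries nearly coincide (−4.24, SE 0.42, adjusted p 0.00883). Among zinc finger genes with Zfp symbols, the list with the most members, 18 of 264 tested fell and 3 rose (7.95% called), 180 estimates were negative, and the median was −0.34, with −0.32 in each of mice 28 and 30. Both ascorbate libraries were below all PBS libraries for 113 of the 264, against 23.9% of all genes tested. Zfp719 fell from 6.98, 4.57 and 6.497 CPM to 0.483 and 0.583 CPM (−3.47, SE 0.47, adjusted p 0.0189), and Zfp60 from 20.5, 9.50 and 12.8 CPM to 1.81 and 1.58 CPM (−3.07, SE 0.53, adjusted p 0.0298). Zfp322a fell from 54.0, 35.3 and 41.1 CPM to 10.1 and 10.5 CPM (−2.07, SE 0.27, adjusted p 0.0155). Zfp397, Zfp595, Zfp518a, Zfp953 and Zfp456 fell by 1.87, 2.03, 1.70, 2.11 and 2.04 on the log2 scale, and 59.2% of the exonic bases of Zfp456 are shared with other genes. The 3 that rose were Zfp592 (149, 142 and 147 CPM to 274 and 290 CPM; 0.95, SE 0.18, adjusted p 0.0348), Zfp335 and Zfp553. Zfp genes have near-identical relatives, and how reads that match several genes were counted is not given in the sources used here.

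Transcription factors of blood cells moved singly, with 1 of 43 tested higher and 2 lower (6.98% called) and a median of 0.03 that was −0.07 on library totals. Gfi1b, a repressor needed for red cell and platelet formation (chromosome 2, 28609450 to 28621982), was at 428, 428 and 443 CPM with PBS and at 144 and 160 CPM with ascorbate (−1.51, SE 0.24, adjusted p 0.0272). Mice 21 and 23 read 623 and 328 CPM, so ascorbate lay below all 5 other secondary libraries. Cbfa2t3 (ETO2), a paralogue of Runx1t1 that acts in erythroid repressor complexes, fell from 123, 125 and 127 CPM to 66.6 and 54.8 CPM (−1.04, SE 0.19, adjusted p 0.0338). Spi1 (PU.1), the myeloid factor that antagonises Gata1, rose from 64.9, 91.9 and 84.7 CPM to 151 and 137 CPM (0.84, SE 0.19, adjusted p 0.0477). Myc fell from 353, 339 and 421 CPM to 180 and 153 CPM (−1.16, SE 0.24, adjusted p 0.0414). In the MYC network as a whole 1 of 12 rose (Mxi1) and 1 fell (Myc), 16.7% called against 2.86% of all genes. Of HOX, MEIS and PBX genes 1 of 12 rose (8.33% called). This was Hoxb3, from 1.66, 1.71 and 1.999 CPM to 5.80 and 6.78 CPM (1.81, SE 0.31, adjusted p 0.0298), a gene that shares 52.9% of its exonic bases with Hoxb3os. Ribosome biogenesis, which MYC controls, had 1 of 39 lower (Rpp38, a subunit of RNase P: 13.3, 13.9 and 11.5 CPM to 3.20 and 2.50 CPM; −2.18, SE 0.36, adjusted p 0.0290) and a median of −0.20, at −0.44 in mouse 28 and −0.03 in mouse 30.

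Of 51 tested genes of homologous recombination and the Fanconi anaemia pathway 4 fell and 0 rose (7.84% called), 43 estimates were negative and the median was −0.49. Mouse 28 had a median of −0.71 and mouse 30 of −0.31, both outside the PBS range of −0.08 to 0.16. Without ascorbate, mice 21 and 23 were low as well, at −0.33 and −0.85. Slx4, the scaffold of nucleases that cut crossed DNA strands (chromosome 16, 3979105 to 4003770), was at 44.1, 34.6 and 38.2 CPM with PBS and at 10.8 and 11.4 CPM with ascorbate (−1.82, SE 0.21, adjusted p 0.0124). Gen1, a Holliday junction resolvase, fell from 59.5, 41.8 and 46.4 CPM to 17.9 and 21.3 CPM (−1.33, SE 0.22, adjusted p 0.0291). Rad51c and Xrcc2, which act in strand exchange, fell too: Rad51c from 4.14, 4.97 and 4.82 CPM to 1.39 and 1.498 CPM (−1.68, SE 0.35, adjusted p 0.0445) and Xrcc2 from 23.7, 20.8 and 19.8 CPM to 12.4 and 9.95 CPM (−0.94, SE 0.20, adjusted p 0.0448). A pair of central genes of the pathway had negative estimates that did not pass: Brca1 −0.42 and Brca2 −0.55 (adjusted p 0.340 and 0.278). In end joining 1 of 19 fell (5.26% called), with a median of −0.19. This was the ligase Lig4, from 6.78, 3.79 and 6.32 CPM to 1.63 and 1.62 CPM (−1.79, SE 0.38, adjusted p 0.0448). Topbp1, an activator of the ATR checkpoint, fell from 247, 186 and 196 CPM to 95.0 and 128 CPM (−0.91, SE 0.20, adjusted p 0.0473). Its levels in mice 21 and 23 were lower still, at 89.2 and 70.0 CPM.

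Base excision repair and PARP genes, which process the products of TET activity, gave 0 of 31 past the threshold (19 negative, median −0.03). Parp1 stood at 392, 384 and 341 CPM with PBS and at 340 and 350 CPM with ascorbate (−0.11, SE 0.20, adjusted p 0.762) and its groups overlapped. Lig3, which shares 25.1% of its exonic bases with Rffl (74.4, 66.6 and 62.5 CPM against 34.3 and 44.9 CPM; −0.78, SE 0.20, adjusted p 0.0683), and the glycosylase Neil3 (−0.97, SE 0.29, adjusted p 0.0989) did not pass. Parp11 and Parp12, mono-ADP-ribosyltransferases outside base excision repair, fell. Parp11 went from 20.01, 15.04 and 22.02 CPM to 4.59 and 4.62 CPM (−2.05, SE 0.32, adjusted p 0.0261).

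In the list of mTORC1 signalling and autophagy 1 of 42 rose and 1 fell (4.76% called, median 0.19). Sqstm1, the autophagy receptor, rose from 246, 234 and 253 CPM to 391 and 412 CPM (0.72, SE 0.13, adjusted p 0.0348). Tsc1, the partner of TSC2 in the brake on mTORC1, fell from 53.7, 44.7 and 47.2 CPM to 23.0 and 18.6 CPM (−1.22, SE 0.18, adjusted p 0.0250). Thus a pair of mTORC1 inhibitors, Ddit4 and Tsc1, moved in opposite directions. Mat2a, which makes the methyl donor S-adenosylmethionine, fell from 246, 223 and 222 CPM to 90.0 and 112 CPM (−1.19, SE 0.16, adjusted p 0.0194), and 11.3% of its exonic bases are shared with Particl. Srsf7, a splicing factor of the SR family, fell from 218, 219 and 215 CPM to 81.4 and 95.1 CPM (−1.30, SE 0.17, adjusted p 0.0169). Its PBS values nearly coincide, and both ascorbate values lie far below them.

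Of 48 tested interferon-stimulated genes 3 fell and 0 rose (6.25% called), 44 estimates were negative, and the median of −0.57 was made up of −0.18 in mouse 28, inside the PBS range of −0.20 to 0.29, and −0.90 in mouse 30. Without mouse 30 it was −0.26, without mouse 28 −0.94. Eif2ak2, the kinase PKR that senses double-stranded RNA, fell from 160, 130 and 167 CPM to 86.7 and 76.5 CPM (−0.90, SE 0.18, adjusted p 0.0376). It was at 71.7 and 58.9 CPM in mice 21 and 23. Parp12 fell from 66.3, 62.7 and 87.8 CPM to 37.4 and 26.1 CPM (−1.19, SE 0.22, adjusted p 0.0338), and Trim30a from 209, 172 and 253 CPM to 120 and 86.4 CPM (−1.04, SE 0.21, adjusted p 0.0408). Gbp7, a guanylate-binding protein that is not on this list, fell as well (261, 156 and 218 CPM to 93.3 and 83.2 CPM; −1.26, SE 0.23, adjusted p 0.0322). Isg15 overlapped between the groups (130, 216 and 291 CPM against 178 and 102 CPM). Markers of macrophages, a cell type of the spleen, were low in the same 2 mice: all 18 tested had negative estimates, 3 of them fell, the median was −1.42, and 0 of the 20 listed was absent from all 5 libraries. Their summed level was 158 to 183 CPM in the PBS mice, 63.6 and 69.8 CPM in the ascorbate mice and 83.2 and 38.2 CPM in mice 21 and 23. Vcam1, the ligand of integrin alpha 4 on splenic macrophages, fell from 10.5, 14.0 and 15.3 CPM to 2.17 and 1.37 CPM (−2.92, SE 0.43, adjusted p 0.0253), and Mrc1 from 2.80, 3.51 and 3.18 CPM to 0.604 and 0.624 CPM (−2.35, SE 0.53, adjusted p 0.0494). In mice 21 and 23 Vcam1 was at 2.38 and 0.960 CPM and Mrc1 at 1.43 and 0.455 CPM. Mertk was at 1.10 to 1.32 CPM and then at 0.121 and 0.166 CPM, a few counts only. In bulk RNA fewer cells of a type and less RNA per cell cannot be told apart, and the part of macrophage RNA in the other falls was not tested.

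Immediate early genes had 2 of 28 lower and 0 higher (7.14% called, median −0.23). Dusp1, a phosphatase that switches off MAP kinases, was at 26.8, 71.9 and 50.6 CPM with PBS and at 12.3 and 9.40 CPM with ascorbate (−2.20, SE 0.45, adjusted p 0.0448). Jun went from 70.0, 110 and 69.9 CPM to 41.6 and 23.6 CPM (−1.36, SE 0.29, adjusted p 0.0439). Mouse 17 was the highest of the 5 libraries for both, and also for Fos (8.36, 43.7 and 31.8 CPM with PBS, 9.90 and 8.197 CPM with ascorbate; −1.63, SE 0.61, adjusted p 0.164). Of NF-kB and inflammation genes 1 of 20 rose, the adhesion receptor Icam1 (27.5, 30.2 and 34.0 CPM to 55.7 and 60.0 CPM; 0.92, SE 0.16, adjusted p 0.0298), and the median of 0.30 was −0.04 without mouse 28. Of heat shock and chaperone genes 0 of 18 passed (median −0.26), though Hspa1b read 6.53, 28.4 and 14.8 CPM and then 1.09 and 1.96 CPM (−3.42, SE 0.77, adjusted p 0.0575). The ATF4 and unfolded protein response list had 1 of 33 lower, Chac1, a glutathione-degrading enzyme at 0.643 to 1.30 CPM with PBS and at 0 and 0.0832 CPM with ascorbate. That list's median of −0.01 changed sign in 13 settings, DESeq2 size factors among them.

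Several large lists leaned one way with no member past the threshold. Of the nuclear-encoded respiratory chain 0 of 59 passed, yet 52 estimates were positive (median 0.25). Both ascorbate libraries lay above the PBS libraries for 25 of the 59, against 21.9% of all genes tested. The list median was 0.14 with the transcript length offset and 0.14 on library totals, and PBS mouse 17 stood at 0.155. Sdhd, a subunit of succinate dehydrogenase, read 204, 224 and 199 CPM and then 330 and 276 CPM (0.54, SE 0.15, adjusted p 0.0860). Cytosolic ribosomal protein genes gave 0 of 76, with 62 positive estimates and a median of 0.40. By mouse the median was 0.50 and 0.29 in mice 28 and 30, and 0.46 and 0.38 in mice 21 and 23. Rps24 read 496, 620 and 590 CPM and then 1015 and 806 CPM (0.68, SE 0.16, adjusted p 0.0516), and the transcript length offset lowered the list median to 0.26. The 9 tested genes of the mitochondrial genome had a median of 0.32 with 0 called, which was 0.69 in mouse 28 and −0.18 in mouse 30, as their shares of the counts above. NRF2 and redox defence genes gave 0 of 31 (25 positive, median 0.20), with Taldo1 of the pentose phosphate pathway at 481, 603 and 532 CPM against 763 and 652 CPM (0.39, SE 0.15, adjusted p 0.156). MHC class I genes gave 0 of 20 (median 0.17, or −0.02 without mouse 28) and class II genes 0 of 10 (median 0.32). Cholesterol and fatty acid synthesis gave 0 of 26 (median −0.19, or 0.04 without mouse 28). Polycomb and chromatin regulators gave 0 of 46 (median −0.12) and replication-independent histones 0 of 15 (median −0.10); the first median was 0.09 without mouse 28 and the second 0.01 without mouse 30.

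**Figure D4:**
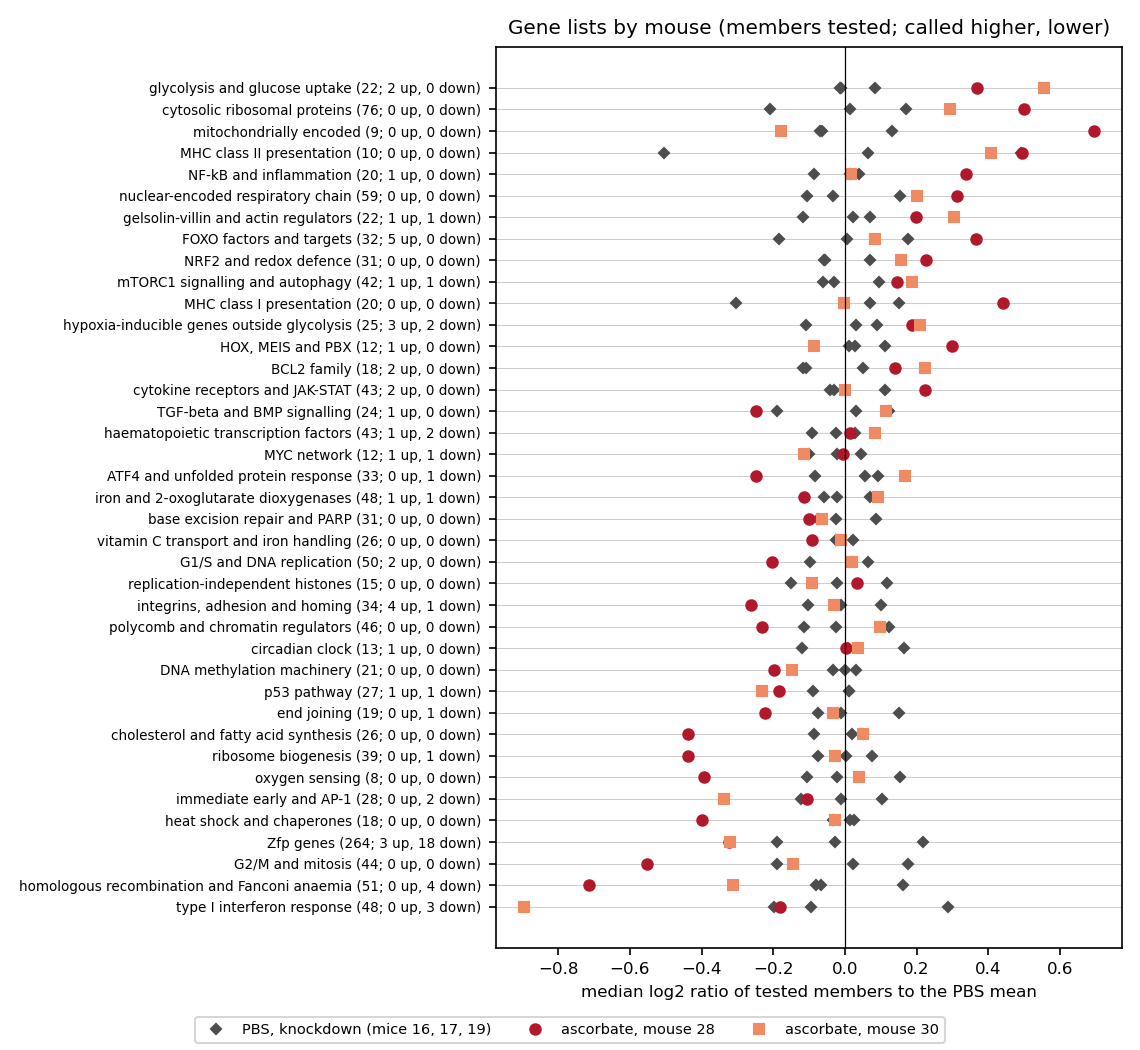
Median log2 ratio of the tested members of each of 39 gene lists to the mean of the PBS libraries, for PBS mice 16, 17 and 19 (diamonds), ascorbate mouse 28 (circles) and mouse 30 (squares); the numbers in brackets are members tested and members past an adjusted p of 0.05. Both ascorbate mice lie beyond the PBS mice for glycolysis (0.37 and 0.56) and recombination (−0.71 and −0.31), and on different sides of the PBS mice for the mitochondrial genome (0.69 and −0.18).

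Cell surface genes moved in both directions. Of integrin, adhesion and homing genes 4 of 34 rose and 1 fell (14.7% called, median −0.10). Fn1 (fibronectin) rose from 1.83, 1.43 and 2.11 CPM to 4.59 and 9.95 CPM (2.03, SE 0.38, adjusted p 0.0348), Thsd4, a matrix protein that binds fibrillin, from 4.38, 6.56 and 3.96 CPM to 11.1 and 22.5 CPM (1.76, SE 0.36, adjusted p 0.0414), and S1pr4, a receptor for sphingosine-1-phosphate on blood cells, from 111, 167 and 133 CPM to 344 and 235 CPM (1.08, SE 0.21, adjusted p 0.0368). For Fn1 and Thsd4 mouse 30 was the higher of the 2 ascorbate mice, for S1pr4 mouse 28. Icam1 rose and Vcam1 fell, as given above. Among cytokine receptor and JAK-STAT genes 2 of 43 rose and 0 fell (4.65% called), and the median of 0.08 was −0.03 on library totals. Besides Il20rb this was Il17ra, a subunit of the interleukin-17 receptors, from 109, 98.4 and 101 CPM to 209 and 183 CPM (0.93, SE 0.14, adjusted p 0.0256). Of TGF-beta and BMP genes 1 of 24 rose (Eng), with a median of 0.03 that was −0.10 on library totals, and of circadian clock genes 1 of 13 rose, the repressor Cry2 (32.5, 25.2 and 25.2 CPM to 54.3 and 52.6 CPM; 0.95, SE 0.19, adjusted p 0.0414), with a median of −0.12.

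Markers of other cell types were read as summed levels. Basophil and mast cell markers had 2 of 13 higher and a median of 0.93. Their sum was 2456 to 3269 CPM with PBS and 3072 and 3915 CPM with ascorbate, so it overlapped, and the tryptase gene Tpsb2 was at 0 in all 5 libraries. Cma1, a mast cell chymase, rose from 13.1, 12.4 and 17.0 CPM to 24.8 and 48.9 CPM (1.38, SE 0.28, adjusted p 0.0408) and the cytokine Il4 from 7.87, 8.64 and 8.32 CPM to 16.1 and 15.5 CPM (0.93, SE 0.20, adjusted p 0.0448). Prtn3, a neutrophil primary granule protease, rose from 1.83, 2.85 and 2.71 CPM to 8.09 and 7.49 CPM (1.66, SE 0.32, adjusted p 0.0356), 1 of 5 tested in its list, whose sum was 8.16 to 11.8 CPM and then 14.1 and 15.5 CPM. That sum includes Prtn3, and the list median was −0.01, with 2 estimates above and 3 below 0. Prtn3 was also the 1 of 9 leukaemic progenitor markers that rose, a list with sums of 663 to 939 CPM and then 737 and 794 CPM. Fn1 was the 1 of 10 monocyte markers that rose (23.4 to 42.6 CPM, then 23.3 and 30.8 CPM). Mature neutrophil markers gave 0 of 11 (4.43 to 14.5 CPM, then 12.7 and 25.2 CPM).

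Erythroid markers gave 0 of 19 (median −0.41) with sums of 10990 to 21340 CPM and then 16880 and 12800 CPM. Among megakaryocyte markers Gp1ba, a platelet receptor for von Willebrand factor, fell from 55.3, 62.4 and 58.5 CPM to 30.9 and 28.8 CPM (−0.98, SE 0.16, adjusted p 0.0291), 1 of 5 tested, while Gp1bb, Gp6 and Ppbp were at 0 in all 5 libraries. B and plasma cell markers gave 0 of 11 (median −1.06), with sums of 41.4 to 65.3 CPM and then 17.8 and 32.6 CPM. T cell markers (0 of 2 tested called) summed to 9.01 to 10.2 CPM with PBS and 7.49 and 6.08 CPM with ascorbate. NK cell markers (0 of 1) summed to 0.812 to 2.93 CPM and then 3.503 and 5.33 CPM, with Klra4 and Klra8 at 0, and dendritic cell markers (0 of 4) to 93.3 to 179 CPM and then 190 and 141 CPM. Stromal and endothelial markers summed to 11.3 to 27.7 CPM and then 51.1 and 40.8 CPM, with Eng the 1 of 5 that rose and Col3a1, Cxcl12 and Pdgfrb at 0. Eng alone made up 33.9 CPM of that sum in mouse 28 and 6.62 CPM in mouse 30. The median of the 5 was −0.12, with 2 estimates above and 3 below 0. The part of these cell types in the results above was not tested.

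**Figure D5:**
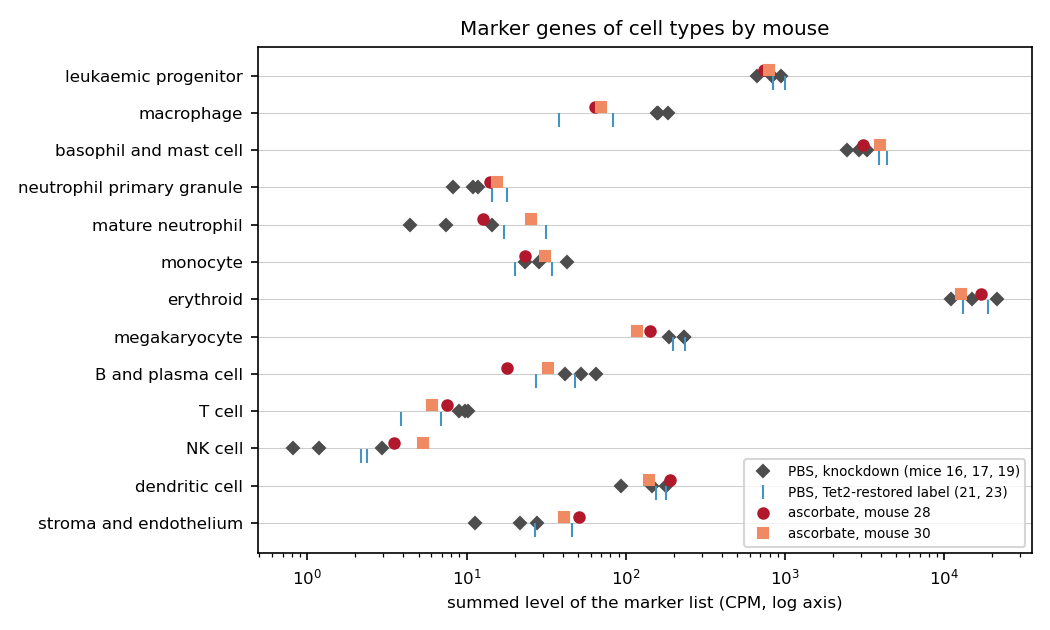
Summed level in CPM (log axis) of the markers of 13 cell types, with 1 symbol for each library: diamonds for PBS mice 16, 17 and 19, a circle for ascorbate mouse 28, a square for mouse 30 and blue ticks for mice 21 and 23. The ascorbate symbols lie below the diamonds for macrophages (63.6 and 69.8 against at least 158 CPM), B and plasma cells, T cells and megakaryocytes, and overlap them or lie above for the others.

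Other abundant genes that rose did so by less than 2-fold. Creg1, a lysosomal glycoprotein, was at 718, 716 and 663 CPM with PBS and at 1129 and 1061 CPM with ascorbate (0.65, SE 0.13, adjusted p 0.0368), the smallest change among the genes that rose. Alox5ap, needed for leukotriene synthesis, rose from 294, 287 and 348 CPM to 539 and 456 CPM (0.68, SE 0.15, adjusted p 0.0449). Crip1, a LIM-domain protein (0.83, SE 0.18), Rhog, a small GTPase (0.75, SE 0.17), Pax6, a factor known from eye and nerve development (0.98, SE 0.20), and the adaptor Samsn1 (0.86, SE 0.15) rose as well. Pax6 was read at 181, 141 and 166 CPM and then at 334 and 306 CPM. Lgals7, a galectin, rose from 13.9, 18.7 and 20.3 CPM to 63.4 and 64.5 CPM (1.86, SE 0.23, adjusted p 0.0132), and N4bp2l1 from 23.1, 21.6 and 19.99 CPM to 88.6 and 56.3 CPM (1.75, SE 0.31, adjusted p 0.0314). Cdk18, a kinase of the PCTAIRE group, rose by 1.75 (SE 0.35, adjusted p 0.0387) to 26.7 and 33.4 CPM, and mice 21 and 23 had similar levels (22.5 and 40.6 CPM). Among the abundant genes that fell, Arrb1 (beta-arrestin) went from 235, 179 and 175 CPM to 105 and 118 CPM (−0.81, SE 0.17, adjusted p 0.0448). Chtf8, a clamp loader subunit, fell from 224, 209 and 203 CPM to 126 and 124 CPM (−0.76, SE 0.16, adjusted p 0.0426), but 91.8% of its exonic bases are shared with other annotation entries, Has3 and a second entry under the symbol Chtf8.

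Set against mice 21 and 23 in the fit of all 7 secondary libraries, ascorbate differed in 1 of 12137 genes (0.00824%; 1966 at an unadjusted p under 0.05), and 0 of the 347 genes passed there. The gene was H1f0, the linker histone of resting and differentiated cells (chromosome 15, 79028450 to 79030504). It was read at 38.4 and 36.7 CPM with ascorbate, at 167 and 275 CPM in mice 21 and 23 and at 54.0, 68.2 and 65.3 CPM in knockdown mice 16, 17 and 19. The ascorbate libraries were the lowest and the libraries of mice 21 and 23 the highest of the 7 (−2.56, SE 0.25, adjusted p 0.0222), and against PBS knockdown ascorbate did not pass (−0.73, SE 0.22, adjusted p 0.0974). Jrk (−3.66, SE 0.43, adjusted p 0.0565), Avil (3.06, SE 0.44, adjusted p 0.0700), Ccng2 (1.56, SE 0.22, adjusted p 0.0700) and Gp1ba (−1.25, SE 0.18, adjusted p 0.0700) were among the genes with the next smallest adjusted p. This call was lost when only the 4 libraries compared were fitted (0 genes, smallest adjusted p 0.0757) and without mouse 17, 28 or 30, and with DESeq2 444 genes passed.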

How the data were processed

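RNA of AE9a-positive spleen cells was sequenced from poly(A)-selected libraries, per the labels' protocols. The authors deposited raw gene counts and FPKM values. STAR, featureCounts and DESeq2 on mm10 (GRCm38) were used, per the submitters' processing notes; their versions and the strand setting are not given in the sources used here. The raw counts of 7 secondary libraries in 3 groups were fitted with edgeR 4.0.16 in R 4.3.3 (filterByExpr with a minimum count of 10, TMM scaling, robust quasi-likelihood test, Benjamini-Hochberg over 12137 genes, threshold 0.05). CPM is relative to the TMM-scaled total of tested genes. SE is that of the log2 fold change. DESeq2 1.42.0 and limma 3.58.1 were alternatives, as were FPKM on the log2(FPKM + 0.1) and log2(FPKM + 1) scales.

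Genes were named by a rule: the targeted and fusion genes; per direction up to 15 with the largest change (separate ranges, at least 5 CPM in the higher group) and up to 10 with the highest level; up to 5 called members of each list, or 2 where none passed; and up to 5 per direction against mice 21 and 23. Predicted genes were left out. Pnrc1, Foxo3, Ldha, Pkm, Eno1, Gapdh, Parp1, Zfp335, Zfp553, Vegfa, Hif1a, Cdkn1a, Mcl1, Brca1, Brca2, Isg15, Fos and the genes of the families under the other observations were named after their values were seen. The members and all gene lists were chosen with earlier results of these data known. No label says that libraries of 1 group come from separate primary leukaemias, so p-values measure the spread between these mice. An exact permutation test of 3 against 2 libraries cannot go below 0.1. On simulated counts of 11928 genes, 60% of 2-fold and 96% of 4-fold changes were recovered, and 13 of 11728 unchanged genes were called. The changes were placed only on genes with a mean of at least 5 CPM. Counts were drawn with the fitted spread of each gene and without a trend in transcript length, so these rates hold for that setting. Exon overlaps are from GENCODE on GRCm38. Values of a few list members are not reported here.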

Additional observations from a re-analysis of the deposited data

Results flagged for a closer look

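H1f0, the linker histone of resting cells, differed in a direct test between ascorbate-treated knockdown mice and mice 21 and 23 (log2 fold change −2.56, SE 0.25, edgeR adjusted p 0.0222). It was the 1 gene past the threshold there, lower in both ascorbate mice (38.4 and 36.7 CPM) than in both others (167 and 275 CPM). The call was lost with only the groups compared, where 0 genes passed, and without mouse 17, 28 or 30.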

How the results depend on the processing

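Against 347 genes, ascorbate against PBS gave 1339 with the DESeq2 Wald test, 1105 with limma voom, 1498 with no filter on low counts, 855 with only the groups compared and 2 with a 2-fold minimum. Leaving out 1 library gave 2 to 796. Against 1 gene, ascorbate against mice 21 and 23 gave 444 with DESeq2, 582 with no filter, 0 with only the groups compared, 0 with a 2-fold minimum, and 3 with all 8 libraries, with the transcript length offset, with log2(FPKM + 0.1) and with log2(FPKM + 1). Leaving out 1 library gave 0 to 5. The cause was not tested. Of single values compared with 1 library left out, 498 kept direction and side of the threshold, 383 fell short of it, 16 newly passed and 4 reversed. Under the other settings these counts were 1422, 141, 78 and 2. The estimates that reversed had not passed: Tet2 was 0.16 with the length offset and −0.15 to 0.072 with 1 library left out, the T cell gene Trac was −0.22 with voom and −1.98 to 2.21 with 1 left out, and the dendritic cell gene Itgax was −0.48 to 0.40 with 1 left out. No paired analysis was possible because the mouse numbers are not shared between groups. With 2 ascorbate libraries and 4 residual degrees of freedom, 60% of 2-fold changes simulated on genes of at least 5 CPM were recovered, so smaller changes can be missed. Of 86 named genes past the threshold, Avil alone passed with each library left out; the other 85 passed in at most 5 of 7 such fits.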

Other observations

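Families picked after their values were seen, and so without weight as groups, describe genes outside the lists above. Of all genes tested, 1.09% were called higher and 1.77% lower. Of 33 tested SR splicing proteins and their regulators 5 fell and 2 rose. Rsrp1, an arginine- and serine-rich protein, fell from 134, 130 and 139 CPM with PBS to 48.1 and 46.5 CPM with ascorbate (−1.51, SE 0.16, edgeR adjusted p 0.0103). Tra2a and Tra2b, which steer exon choice, fell by 1.96 and 1.08 on the log2 scale (SE 0.28 and 0.21, adjusted p 0.0216 and 0.0391), and Arglu1 fell by 0.93. The kinase Clk3, which phosphorylates SR proteins, rose from 76.3, 77.7 and 74.4 CPM to 156 and 154 CPM (1.03, SE 0.14, adjusted p 0.0194), and the related kinase Dyrk1b rose too (1.64, SE 0.33, adjusted p 0.0414). For Rsrp1 and Clk3 the libraries of each group nearly coincide. Of 65 spliceosome and RNA-binding RBM and PRPF genes 4 fell (Prpf39, Rbm12b2, Rbm14 and Rbm5) and 0 rose.

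Of 61 tRNA modification enzymes 7 fell and 0 rose. Trmt1l went from 60.5, 50.3 and 56.4 CPM to 14.8 and 16.2 CPM (−1.84, SE 0.34, adjusted p 0.0348), and Trmt12 from 17.6, 18.8 and 17.5 CPM to 5.92 and 4.08 CPM (−1.85, SE 0.28, adjusted p 0.0256). Of 25 genes of methionine, folate and cobalamin metabolism 4 fell. Besides Mat2a these were Mmaa, Mmachc and Mtrr, which handle cobalamin or keep methionine synthase active, with Mmachc at 24.6, 25.9 and 23.0 CPM and then 9.42 and 11.5 CPM (adjusted p 0.0348). Of 25 genes of GPI anchor synthesis Pigg, Pigm and Pigw fell. Of 60 Kelch-like and BTB zinc finger genes 7 fell and 0 rose, of 17 Zkscan and Zscan genes 2 rose (Zkscan14 and Zkscan17) and 2 fell (Zkscan8 and Zscan22), and of 13 tubulin genes 2 rose, Tubb4a and Tubb2b, both at or under 2.5 CPM.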
